A study of Arabidopsis thaliana with 75 samples.

Results

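Messenger RNA of 8 lipid transfer protein genes was followed in cut leaves of Arabidopsis thaliana. The 8 were taken by gene ID from a table of 32833 genes: the soluble proteins LTP1 (AT2G38540), LTP2 (AT2G38530), LTP3 (AT5G59320) and LTP4 (AT5G59310), and the membrane-anchored proteins LTPG1 (AT1G27950), LTPG2 (AT3G43720), LTPG5 (AT3G22600) and LTPG15 (AT2G48130). All 8 were among the 23475 genes with enough counts to be tested. The study sequenced mRNA of the 8th leaf of 4-week-old plants after a wound made with a knife blade. There were 75 libraries in 25 groups of 3 replicates. Leaves labelled gpat4 gpat8 came from the hours 0h, 2h, 4h and 12h and from 1D, 2D and 3D, where D stands for days. The rbohE leaves came from 0h, 2h and 4h and from days 1D, 3D and 5D. Wild type (WT) leaves came from 0h, 1h, 2h and 4h, from 6h, 12h and 18h and from all days of 1D to 5D. The labels give wounding as the treatment of every group, 0h included, and give neither the alleles of the mutants nor how soon after the cut the 0h leaves were taken. Later unwounded leaves were not analysed here, so hours since the cut and hour of the day cannot be told apart.

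Lipid transfer proteins are small, cysteine-rich proteins of the cell surface with a hydrophobic tunnel that holds fatty acids and other lipids. The soluble members are secreted into the cell wall, while the LTPG members carry a glycosylphosphatidylinositol (GPI) anchor that ties them to the outer face of the plasma membrane. In plants they are studied for the delivery of lipids to cutin, wax and suberin, the barrier polymers and coatings of epidermis, root and seed coat, and for roles in defence.

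Expression is given in CPM, the field's unit of counts relative to the library total, here after correction by trimmed mean of M values (TMM) factors. Totals ran from 46045188 to 67376782 counts per library. The word called is used for genes with an adjusted p under 0.05 in edgeR's quasi-likelihood test and a log2 fold change of at least 1 in either direction. In the libraries labelled gpat4 gpat8, GPAT4 was lower (84.4 ± 4.94 CPM, against 252 ± 9.01 CPM in WT at 2h, SD, n = 3 each) while GPAT8 was higher (34.4 ± 3.68 CPM, against 17.7 ± 3.86 CPM in WT at 2h), so directions for that genotype rest on its label. At 0h GPAT4 was close, at 27.1 ± 2.66 CPM in gpat4 gpat8, against 33.1 ± 5.44 CPM in WT. It was also close at 2D, at 41.2 ± 2.77 CPM in gpat4 gpat8, against 47.2 ± 4.00 CPM in WT. RBOHE had 2.73 ± 0.131 CPM in rbohE libraries, against 45.7 ± 3.67 CPM in WT at 3D. At 0h, 2h and 4h it averaged under 1 CPM in both genotypes and was not lower in rbohE (0.736 ± 0.291 CPM, against 0.197 ± 0.0322 CPM in WT at 0h). At 1D it was also under 1 CPM in both and close, at 0.587 ± 0.196 CPM in rbohE, against 0.628 ± 0.286 CPM in WT. The rbohE label could therefore not be checked at 0h, 2h, 4h or 1D. For gpat4 gpat8, the 9 libraries of 0h and 12h and of 1D have an M of unstated meaning in their descriptions and no other libraries of those groups lack it, so that mark and the group cannot be told apart. Leaf identity was seen in all libraries, with mesophyll markers at 1629.7 CPM or more in sum, while the root markers SHV2 and CASP1 were at 0 in 58 and 64 libraries, and of 4 epidermal markers PDF1 was at 0 in 43 and ATML1, KCS10 and PDF2 in none.

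The members lie singly or in neighbouring pairs on the RefSeq assembly TAIR10.1. LTP2 (chr2:16128176-16129399) and LTP1 (chr2:16130290-16131240) stand in tandem on the plus strand, 890 bases apart, with coding sequences that are 82.4% identical. LTP4 (chr5:23924990-23925957, minus strand) and LTP3 (chr5:23928954-23929816, plus strand) point away from each other across 2996 bases, and their coding sequences are 84.5% identical. No stretch of 50 bases of these 4 transcripts was shared with another gene, so reads of that length could be told apart, although the read length is not given in the sources used here. The same held for LTPG1, LTPG2 and LTPG5, while LTPG15 shared 49 of its 2408 stretches with AT3G01125 and AT4G37500, so reads from those could be split. The beginning of the coding sequences of LTP3 and LTP4 shows how close the 2 neighbours are, with the 5 positions of the opening 60 bases at which they differ in capitals.
LTP3: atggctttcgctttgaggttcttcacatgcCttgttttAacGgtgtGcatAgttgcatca
LTP4: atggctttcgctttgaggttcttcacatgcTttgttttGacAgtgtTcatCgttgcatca
LTPG1 (chr1:9740508-9742159, plus strand) ends 23 bases inside ECT9 on the other strand, and LTPG2 lies at chr3:15615386-15617309 on the minus strand. Whether counting used the strand is not given in the sources used here. ECT9 itself stayed between 2.08 and 8.90 CPM in group means, and LTPG1 was as low as 5.54 CPM in WT at 5D. The part of ECT9 reads in the LTPG1 counts was not tested.

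LTPG5 (chr3:8006249-8007836, minus strand) and LTPG15 (chr2:19682456-19686056, minus strand) each share an upstream region with another gene of the lipid transfer superfamily. LTPG5 is 697 bases from AT3G22620 and LTPG15 is 276 bases from EDA4 (AT2G48140), both on the plus strand and pointing away. The sequences are printed because both members rose steeply after wounding and their neighbours were measured in the same libraries. The 250 bases before the start of LTPG5 (chr3:8007837-8008086, read on the minus strand) hold 1 W box (TTGACC or TTGACT, the element bound by WRKY factors), in capitals.
LTPG5 upstream: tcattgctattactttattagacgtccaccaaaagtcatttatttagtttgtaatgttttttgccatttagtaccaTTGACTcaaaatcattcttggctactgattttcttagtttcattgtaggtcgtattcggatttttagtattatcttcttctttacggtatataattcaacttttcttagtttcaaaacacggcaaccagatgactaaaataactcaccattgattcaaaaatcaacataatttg
The whole stretch between LTPG15 and EDA4 (chr2:19686057-19686332, read on the plus strand) holds 1 abscisic acid response element (ABRE) core, ACGTG read on the other strand, in capitals.
LTPG15 to EDA4: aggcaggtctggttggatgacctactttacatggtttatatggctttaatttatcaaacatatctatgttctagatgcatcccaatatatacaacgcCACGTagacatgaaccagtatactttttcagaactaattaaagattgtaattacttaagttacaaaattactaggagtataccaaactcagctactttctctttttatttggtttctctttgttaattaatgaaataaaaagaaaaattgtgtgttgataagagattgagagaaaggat
Searched on both strands of the 250 bases upstream, the ABRE core was also present once before LTP2 and before none of the other 6 members. Among the members, the W box was present before LTPG5 alone. The 250 bases before AT3G22620, in the region shared with LTPG5, also held 1 W box (TTGACC), and the middle of that region was not searched. Over 27437 promoters of that length, 22.9% held the ABRE core and 28.4% held the W box. No member held an L1 box (TAAATGCA or TAAATGTA), which 4.49% of promoters held, or a GCC box (GCCGCC), which 1.87% held. Such matches describe letters only.

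In WT leaves, the 8 genes followed different courses after the cut. By group means, LTPG1 and LTPG2 peaked at 2h, LTP1 and LTP2 at 6h, LTP3, LTP4 and LTPG5 at 12h, and LTPG15 at 3D, with replicates of LTP1, LTP2 and LTPG5 at the peak overlapping with those of another time. Of the 88 pairs of a member and a time after 0h, 62 were called against WT 0h, 43 of them higher and 19 lower, against 22% of all gene and time pairs tested. Split by time, with the share of all genes called in parentheses, the members called numbered 7 for 1h (33.6%), 5 for 2h (38.2%), 6 for 4h (27%), 6 for 6h (18.5%), 7 for 12h (16.5%), 2 for 18h (16.5%), 3 for 1D (17.6%), 5 for 2D (19.4%), 6 for 3D (17.9%), 8 for 4D (17.3%) and 7 for 5D (19.2%). The 7 for 1h, and so the 62, include LTPG15, for which both groups were at the detection floor. At 12h, 7 of the 8 were higher and none lower (9.68% of all genes were higher). At 5D, LTPG5 and LTPG15 were still higher and 5 members were lower, and LTP2 was not called (9.69% and 9.53% of all genes were higher and lower). The median log2 fold change of the 8 was 2.10 at 12h and -2.52 at 5D, while that of all genes lay within 0.1 of 0 at every time. At 0h, 2h, 4h, 12h and 5D in WT, the summed epidermal markers averaged 271, 367, 188, 202 and 173 CPM. At those times the summed guard cell markers averaged 129, 91.7, 242, 353 and 65.7 CPM, and the mesophyll markers 5414, 4614, 1825, 2945 and 2789 CPM. The high guard cell sums came mostly from KAT1, which reached 318 CPM in group means. By contrast, FMA had its highest group mean at WT 0h (41.9 CPM), and MYB60 reached 18.3 CPM at most. The part of these cell type markers in the members' changes was not tested. All 11 of these comparisons share the WT 0h libraries. In bulk samples such as these, fewer cells of a type and less RNA per cell cannot be told apart.

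**Figure D1:**
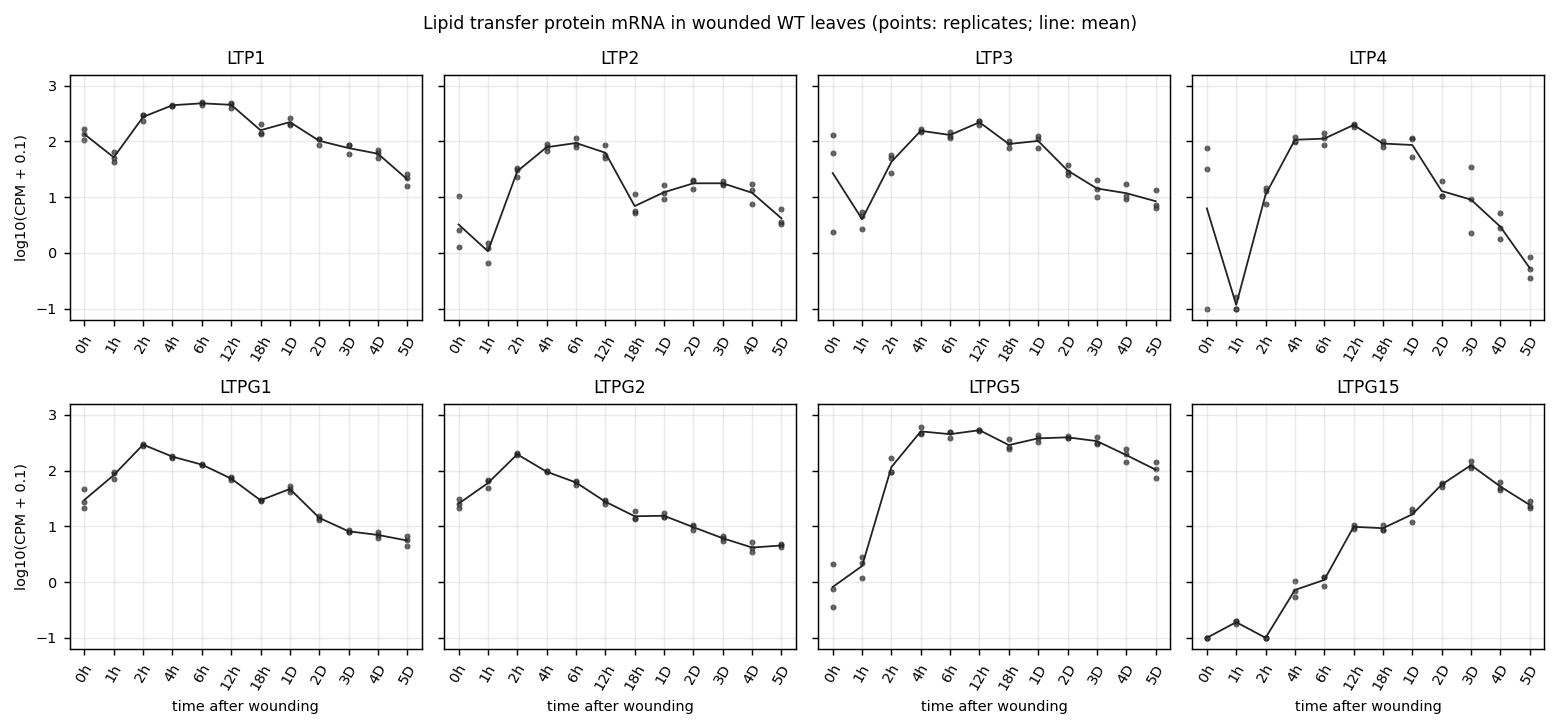
Level of each member in WT leaves, as log10(CPM + 0.1), against time after wounding. Points are the 3 replicates and the line joins the means of the plotted values. LTPG1 and LTPG2 are highest at 2h, LTPG15 at 3D, and the 3 replicates at 0h are far apart for LTP3 and LTP4.

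**Figure D2:**
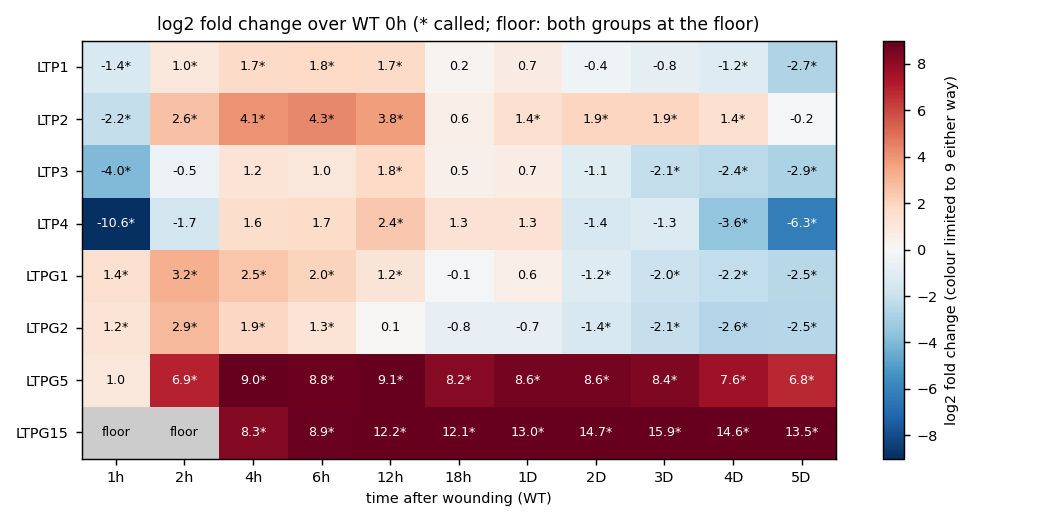
Fitted log2 fold change of each member (rows) over WT 0h at 11 later times (columns), with an asterisk where the change was called. Red is higher and blue is lower than WT 0h, and grey marks LTPG15 at 1h and 2h, where both groups were at the detection floor. LTPG5 is red from 2h on, and LTPG1 and LTPG2 turn from red to blue.

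Between neighbouring WT times, 36 of 88 pairs of a member and a step were called, 18 higher and 18 lower, against 11.2% of all pairs. Counted by the time at the end of the step, with the share of all genes in parentheses, they numbered 7 for 1h (33.6%), 8 for 2h (24.4%), 6 for 4h (22.8%), 0 for 6h (5.67%), 2 for 12h (10.7%), 3 for 18h (7.28%), 0 for 1D (5.04%), 5 for 2D (8.07%), 1 for 3D (3.8%), 1 for 4D (0.933%) and 3 for 5D (1.25%). All 8 members were called in the step that ended at 2h, and 7 of them were higher than at 1h, while LTPG15 was at the floor at both times. LTPG15 was also among the 7 called for 1h, again with both groups at the floor.

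LTP1, a cell wall protein typical of the epidermis, was per kilobase the most abundant of the soluble members at every WT time. It had 169, 135 and 107 CPM in the 3 WT leaves at 0h, 43.2, 64.4 and 49.6 CPM at 1h, 486, 446 and 517 CPM at 6h and 21.8, 25.6 and 15.9 CPM at 5D. All samples at 1h were below all samples at 0h, all samples at 6h were above them, and those at 5D were the lowest of the course. LTP1 fell at 1h (log2 fold change -1.39 ± 0.20 (SE), adjusted p = 1.39e-08), rose by 6h (1.82 ± 0.20 (SE), adjusted p = 2.31e-11) and was lower at 5D (-2.70 ± 0.21 (SE), adjusted p = 1.24e-16). The largest step between neighbouring times was at 2h, with a log2 fold change of 2.40 ± 0.20 (SE), adjusted p = 2.61e-15 over 1h, and steps down after the peak were called at 18h (-1.50 relative to 12h), 2D (-1.12 relative to 1D) and 5D (-1.52 relative to 4D). The call at 2h against 0h (1.01) sat at the threshold and was lost without 1 of 3 libraries (WT 0h replicate 3, WT 2h replicate 2 or 3), with values of 0.86 to 0.97.

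LTP2, the tandem neighbour of LTP1 and also a protein of the cell wall, started near the bottom of its range. The 3 WT leaves had 10.3, 1.18 and 2.44 CPM at 0h, 0.563, 1.38 and 1.15 CPM at 1h, 23.3, 33.9 and 31.0 CPM at 2h and 80.6, 89.0 and 114 CPM at 6h. Replicate 1 stood well above the other two at 0h, and the samples at 1h overlapped with those at 0h, while all samples at 2h and 6h were higher. LTP2 rose at 2h (log2 fold change 2.64 ± 0.41 (SE), adjusted p = 1.05e-07) and at 6h (4.32 ± 0.43 (SE), adjusted p = 2.58e-12), and without WT 0h replicate 1 these were 4.00 and 5.69. It then dropped by 18h relative to 12h (-3.15 ± 0.41 (SE), adjusted p = 1.38e-08), to 5.63, 5.06 and 11.1 CPM. The lower value at 1h (log2 fold change -2.17) was called, but without WT 0h replicate 1 it was -0.80 (adjusted p = 0.124). Values from 1D to 4D were also called higher, with log2 fold changes of 1.41 to 1.92, and a fit of the 2 groups compared alone called none of the 4. Those at 1D and 4D were also lost without WT 0h replicate 2 (0.97 for both).

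LTP3 and LTP4, which are known as abscisic acid responsive and, for LTP3, as a modulator of defence against bacteria, moved together and were the least repeatable members. LTP3 had 130.4, 63.0 and 2.30 CPM at 0h, 5.22, 4.46 and 2.60 CPM at 1h, 234, 196 and 234 CPM at 12h and 7.04, 13.2 and 6.29 CPM at 5D in WT. LTP4 had 77.6, 31.8 and 0 CPM at 0h, 0, 0.0592 and 0 CPM at 1h, 208, 183 and 201 CPM at 12h and 0.404, 0.755 and 0.255 CPM at 5D. At 0h, replicate 3 was far below the other two for both genes, at 2.30 CPM for LTP3 and 0 for LTP4, so that it was no higher than the 1h samples and the groups overlapped. The highest WT 0h replicate of LTP3 was 56.6 times the lowest, a ratio above that of 99.9% of genes averaging at least 1 CPM.

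Steps of LTP3 and LTP4 between neighbouring times after 0h do not use the 0h libraries. Both rose at 2h over 1h (log2 fold change 3.46 ± 0.75 (SE), adjusted p = 7.84e-05 for LTP3), with 56.6, 50.9 and 27.5 CPM at 2h. LTP4 reached 14.4, 12.6 and 7.30 CPM at 2h, against a group at the detection floor at 1h, for which the fitted log2 fold change (8.93) depends on the prior count. LTP4 rose again at 4h over 2h, to 122, 97.0 and 103 CPM (3.23 ± 0.88 (SE), adjusted p = 0.00134), and no sample of one time overlapped with the other. LTP3 also rose in that step (1.79 ± 0.67 (SE), adjusted p = 0.0202), a call lost without WT 2h replicate 3. At 2D, both fell relative to 1D, by 1.77 on the log2 scale for LTP3 and 2.77 for LTP4 (adjusted p = 0.0372 and 0.00940), and LTP3 lost that call without any of 5 of the 6 libraries.

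Against 0h, LTP3 was called lower at 1h (log2 fold change -4.00 ± 0.77 (SE), adjusted p = 8.67e-06) and higher at 12h (1.76 ± 0.67 (SE), adjusted p = 0.0258). LTP4 was called higher at 12h (2.43 ± 0.84 (SE), adjusted p = 0.0135) and lower at 5D (-6.25 ± 1.12 (SE), adjusted p = 5.15e-06). In a fit of the 2 groups compared alone, the 5 calls of LTP3 and those of LTP4 at 12h, 4D and 5D were lost, with adjusted p from 0.0515 to 0.277. Leaving out WT 0h replicate 1 added calls of higher LTP3 and LTP4 at 4h and 6h, with log2 fold changes of 2.25 and 2.01 for LTP3 and 2.77 and 2.86 for LTP4. At 2D, LTP3 and LTP4 were called lower only without WT 0h replicate 3 (-1.66 and -2.03).

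LTPG1 and LTPG2, the GPI-anchored proteins known for export of cuticular wax in stems, rose the earliest and had the lowest median ratio of highest to lowest replicate over the 25 groups, though at WT 0h that ratio was 2.22 for LTPG1, above the 1.57 of LTP1. LTPG1 had 46.7, 26.8 and 21.0 CPM at 0h, 69.5, 92.5 and 89.1 CPM at 1h, 293, 303 and 281 CPM at 2h and 4.39, 6.67 and 5.55 CPM at 5D in WT. LTPG2 had 31.1, 24.9 and 21.1 CPM at 0h, 49.2, 67.6 and 63.8 CPM at 1h, 195, 203 and 189.5 CPM at 2h and 4.48, 4.64 and 4.19 CPM at 5D. For each gene, every sample at 1h and 2h was above every sample at 0h, and every sample at 5D was below. Both were the only members that were called higher at 1h with values above the floor, with log2 fold changes of 1.41 ± 0.16 (SE), adjusted p = 2.47e-11 for LTPG1 and 1.23 ± 0.15 (SE), adjusted p = 1.41e-10 for LTPG2. The peak at 2h reached 3.21 ± 0.17 (SE), adjusted p = 5.08e-24 and 2.93 ± 0.16 (SE), adjusted p = 6.02e-24.

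From 2D on, LTPG1 and LTPG2 were called below their 0h level, though for LTPG1 at 2D (-1.16) not without WT 0h replicate 1 (-0.76). At 5D the log2 fold change was -2.50 ± 0.17 (SE), adjusted p = 1.18e-18 for LTPG1 and -2.53 ± 0.16 (SE), adjusted p = 5.11e-20 for LTPG2. LTPG2 came down sooner: at 12h it was not called (0.11 ± 0.15 (SE), adjusted p = 0.589), while LTPG1 was still higher (1.19 ± 0.16 (SE), adjusted p = 7.03e-09), a call lost without WT 0h replicate 3 (0.97). LTPG1 alone fell by more than the threshold at 18h relative to 12h (-1.30 for LTPG1 and -0.86 for LTPG2), but the difference between the 2 genes was not tested. The 2 courses had a Pearson correlation of 0.98 over the 25 group means of log2 CPM, a description of groups from 1 experiment.

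LTPG5, a GPI-anchored member associated with defence, had the largest called rise over 0h, by log2 fold change, among members detected at 0h. It had 1.97, 0.256 and 0.642 CPM at 0h, 1.10, 2.70 and 2.07 CPM at 1h, 95.1, 169.8 and 96.2 CPM at 2h and 543, 518 and 533 CPM at 12h in WT. Samples at 1h overlapped with those at 0h, and from 2h on every sample was at least 73.1 CPM. The log2 fold change was 6.92 ± 0.36 (SE), adjusted p = 8.90e-24 at 2h and 9.06 ± 0.39 (SE), adjusted p = 2.01e-25 at 12h. LTPG5 stayed high, with 301, 317 and 404 CPM at 3D, and was lower but still far above 0h at 5D, with 73.1, 107 and 143 CPM (6.76 ± 0.36 (SE), adjusted p = 1.97e-22). All 10 calls from 2h on kept their direction and call without any 1 library and under the other settings, with 8.02 at 2h and 10.16 at 12h without WT 0h replicate 1, while the value at 1h, 0.9989, was just under the threshold and was called under 5 of the 6 other settings (1.00 to 1.18).

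LTPG15, a GPI-anchored member known for suberin formation in the seed coat, was the last to appear. In WT it was at 0 in all 3 libraries at 0h and at 2h, and at the floor of 3 fragments or fewer at 1h. It had 0.925, 0.583 and 0.437 CPM at 4h, 10.4, 9.01 and 9.79 CPM at 12h, 121, 111 and 146 CPM at 3D and 21.4, 28.2 and 23.2 CPM at 5D. No sample at 4h overlapped with one at 0h, and the 3D samples were the highest of the course. Against a floor of 3 fragments per library at 0h, the mean was at least 4.81-fold higher at 4h and at least 935-fold higher at 3D. Between neighbouring times LTPG15 rose at 12h over 6h (log2 fold change 3.26 ± 0.27 (SE), adjusted p = 4.30e-14), at 2D over 1D (1.74 ± 0.23 (SE), adjusted p = 3.33e-08) and at 3D over 2D (1.17 ± 0.23 (SE), adjusted p = 1.42e-04), and fell at 4D relative to 3D (-1.27 ± 0.23 (SE), adjusted p = 2.39e-04). LTPG15 at 1h also passed the call rule with 3 to 5 counts per library, which is at the floor, so no fold is given for it.

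The divergent neighbours whose upstream regions were printed above had similar but not identical courses. AT3G22620 had 0.198, 0.0197 and 0.0658 CPM at 0h, 9.18, 33.0 and 12.3 CPM at 2h and 302, 309.6 and 396 CPM at 3D in WT, so that every sample at 2h was above every sample at 0h, as for LTPG5. Its 0h mean was under the floor, so no fold is given for the called rise at 3D (adjusted p = 1.05e-25). Among 18476 genes compared with LTPG5 over the 25 group means, AT3G22620 had the highest correlation, at 0.977. EDA4 was at 0 at 0h, 1h, 2h and 4h in WT, when LTPG15 already had 0.649 ± 0.251 CPM at 4h (SD, n = 3). EDA4 reached 0.908, 0.757 and 1.14 CPM at 12h and 155, 139.7 and 181 CPM at 3D, and its correlation with LTPG15 of 0.928 was the 57th highest.

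**Figure D3:**
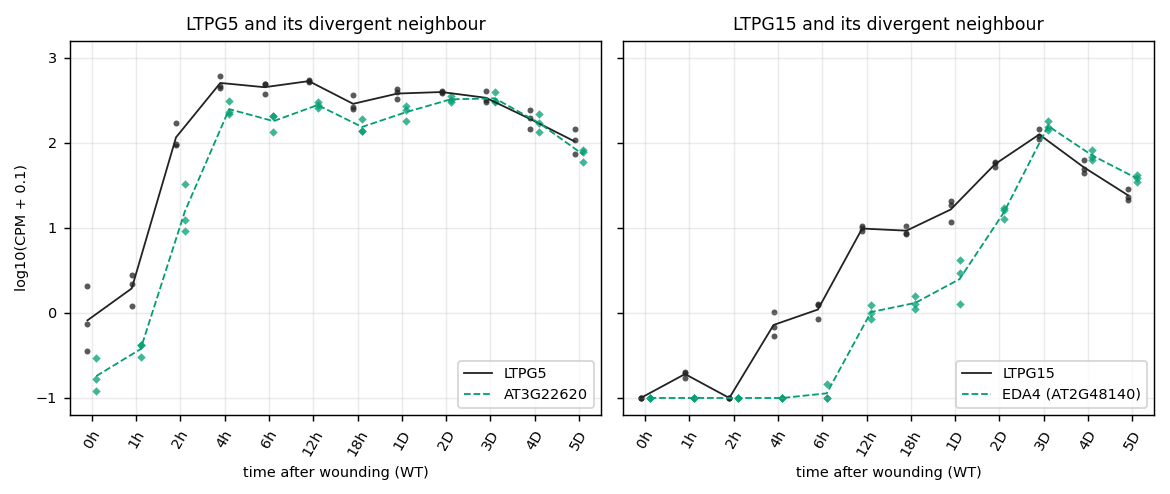
LTPG5 with AT3G22620 (left) and LTPG15 with EDA4 (right) in WT leaves, as log10(CPM + 0.1) against time after wounding. Points are the 3 replicates and lines join the means of the plotted values, solid for the member and dashed for its neighbour. LTPG15 climbs from 4h and EDA4 from 12h, and both peak at 3D.

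Compared per kilobase of transcript, the members changed places over the course. At 0h in WT, LTP1 was the highest at 165 ± 37.0 CPM per kb (SD, n = 3) and LTPG5 was at 0.676 ± 0.635 CPM per kb. At 2h, LTP1 (333 ± 42.2) and LTPG1 (298 ± 11.1) led, with LTPG1 inside the spread of LTP1. At 3D, LTPG5 led with 241 ± 38.9 CPM per kb, ahead of LTP1 with 92.5 ± 17.6 and LTPG15 with 51.3 ± 7.31. The order of the last 2 depends on the transcript lengths used, 832 bases for LTP1 and 2457 for LTPG15. In CPM at 3D, LTPG15 (126 ± 18.0) was above LTP1 (76.9 ± 14.6). Over all 25 groups, LTP1 and LTP2 were highest in gpat4 gpat8 at 4h, LTP3 and LTP4 in gpat4 gpat8 at 12h, LTPG1 and LTPG2 in rbohE at 2h, LTPG5 in rbohE at 4h and LTPG15 in WT at 3D. With the 25 groups of a gene in order of level, the replicates of neighbouring groups did not overlap for 10 of the 24 neighbours for LTPG1, 9 for LTPG2, 7 for LTPG15, 5 for LTP1, 4 each for LTP4 and LTPG5, and 3 each for LTP2 and LTP3. The same count was not made over all genes, so whether these are high or low for a gene cannot be said. The typical ratio of the highest to the lowest replicate within a group had a median of 1.18 for LTPG1 and 2.05 for LTP4, against 1.16 for genes averaging at least 1 CPM.

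In the libraries labelled gpat4 gpat8, LTP1 and LTP2 were higher than in WT at 4h and 1D. Against WT at the same time, 11 of 56 pairs of a member and a time were called, 10 higher and 1 lower, against 10.9% of all gene and time pairs. Split by time, with the share of all genes in parentheses, they numbered 3 for 0h (20.5%), 0 for 2h (6.85%), 3 for 4h (19.2%), 0 for 12h (12.7%), 2 for 1D (11.4%), 1 for 2D (2.07%) and 2 for 3D (3.16%). LTP1 had 959, 869 and 881 CPM in gpat4 gpat8 leaves at 4h, against 441, 439.8 and 457 CPM in WT. At 1D it had 834, 721 and 554 CPM in gpat4 gpat8 leaves, against 209, 197 and 267 CPM in WT. No sample overlapped at either time, and the log2 fold change was 1.02 ± 0.19 (SE), adjusted p = 1.30e-05 at 4h and 1.65 ± 0.20 (SE), adjusted p = 7.56e-10 at 1D. The call at 4h sat at the threshold and was lost with relative log expression (RLE) scaling (0.95). LTP1 was also called at 3D (1.09 ± 0.20 (SE), adjusted p = 4.69e-05), where no M library enters, but not without WT 3D replicate 3 (0.94).

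LTP2 had 365, 367 and 308 CPM in gpat4 gpat8 leaves at 4h, against 67.9, 80.2 and 89.3 CPM in WT. At 1D it had 132, 148 and 101 CPM in gpat4 gpat8 leaves, against 11.7, 9.18 and 16.7 CPM in WT. All 3 gpat4 gpat8 samples were above all 3 WT samples at both times, with log2 fold changes of 2.13 ± 0.39 (SE), adjusted p = 5.59e-06 at 4h and 3.34 ± 0.41 (SE), adjusted p = 1.75e-09 at 1D. Other leaf genes differed between the same libraries: the summed mesophyll markers ran from 14611 to 16291 CPM in gpat4 gpat8, against 1629.7 to 2055 CPM in WT at 4h, and from 10365 to 11237 CPM in gpat4 gpat8, against 2649 to 3372 CPM in WT at 1D. The summed epidermal markers ran from 344 to 407 CPM in gpat4 gpat8, against 177 to 199 CPM in WT at 4h, and from 249 to 276 CPM in gpat4 gpat8, against 242 to 251 CPM in WT at 1D, where they overlapped. Their part in the LTP1 and LTP2 values was not tested.

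LTP4 had 111, 73.8 and 153 CPM in gpat4 gpat8 leaves at 2D, against 19.3, 10.3 and 10.5 CPM in WT. The groups did not overlap and LTP4 was called higher (3.07 ± 0.87 (SE), adjusted p = 0.0246), a call lost without gpat4 gpat8 2D replicate 3 or any WT 2D replicate, with adjusted p of 0.0625 to 0.116. At 3D, LTPG1 was called higher in gpat4 gpat8, with 16.4, 17.0 and 16.0 CPM against 8.57, 7.66 and 7.95 CPM in WT (1.03 ± 0.16 (SE), adjusted p = 5.16e-06), with no overlap and a value of 0.99 without WT 3D replicate 2. LTPG15 had 1.77, 0.786 and 1.58 CPM in gpat4 gpat8 leaves at 4h, against 0.925, 0.583 and 0.437 CPM in WT, with overlapping samples (1.07 ± 0.32 (SE), adjusted p = 0.00404). That call was lost in a fit of the 2 groups alone and without gpat4 gpat8 4h replicate 1 or 3 or WT 4h replicate 2 or 3. LTPG2 and LTP3 were called at none of the 7 times. At 4h, LTP3 had 72.4 ± 20.5 CPM in gpat4 gpat8, against 155 ± 8.02 CPM in WT (SD, n = 3 each). LTP4 had 43.1 ± 14.9 CPM in gpat4 gpat8, against 107 ± 13.1 CPM in WT at 4h. Both were thus lower, unlike LTP1 and LTP2, and were called in a fit of the 2 groups alone but not in the main fit.

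At 0h, 3 members differed between gpat4 gpat8 and WT. LTPG15 had 0.132, 0.369 and 0.187 CPM in gpat4 gpat8 leaves, from 6, 21 and 10 counts, against 0 in all 3 WT leaves, so that its call rests on few counts and no fold is given. LTPG5 had 2.82, 3.85 and 3.65 CPM in gpat4 gpat8 leaves, against 1.97, 0.256 and 0.642 CPM in WT (1.80 ± 0.34 (SE), adjusted p = 1.19e-05), with no overlap. LTP4 had 0.572, 3.57 and 4.87 CPM in gpat4 gpat8 leaves, against 77.6, 31.8 and 0 CPM in WT (-3.58 ± 0.93 (SE), adjusted p = 9.13e-04), and here the groups overlapped because WT replicate 3 was at 0. In a fit of the 2 groups alone, the adjusted p was 0.0599 for LTPG5 and 0.180 for LTP4. LTP3 had 35.4, 282 and 32.1 CPM in gpat4 gpat8 leaves, against 130.4, 63.0 and 2.30 CPM in WT, and was not called. The summed mesophyll markers at 0h ran from 13178 to 15459 CPM in gpat4 gpat8 and 12494 to 14471 CPM in rbohE, against 4328 to 6818 CPM in WT, and the part of this difference in the 0h values was not tested.

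**Figure D4:**
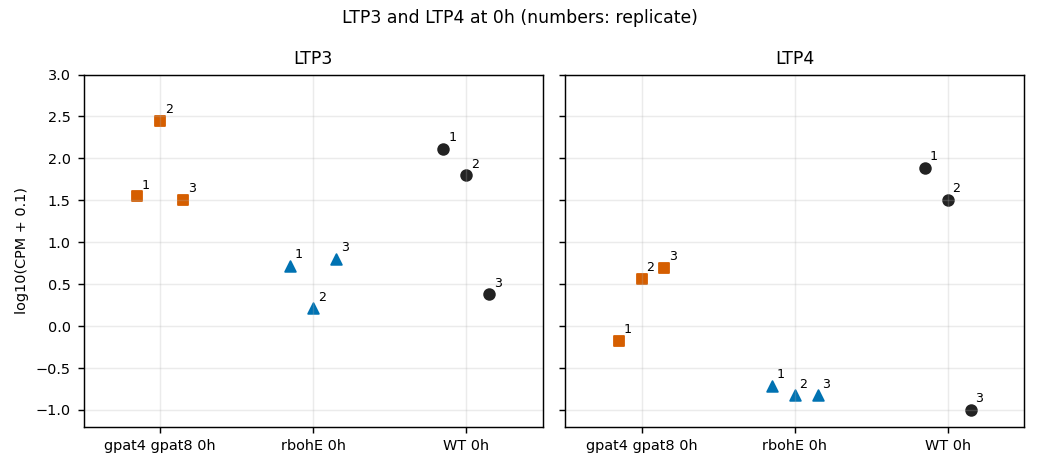
LTP3 (left) and LTP4 (right) at 0h in each of the 9 libraries, as log10(CPM + 0.1), with the replicate number beside each point. Groups from left to right are gpat4 gpat8, rbohE and WT. Replicate 3 of WT lies far below replicates 1 and 2 for both genes, and replicate 2 of gpat4 gpat8 lies above the other two for LTP3 but not for LTP4.

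In rbohE leaves, 4 of 48 pairs of a member and a time were called against WT, 2 higher and 2 lower, against 3.11% of all gene and time pairs. Split by time, with the share of all genes in parentheses, they numbered 2 for 0h (11.7%), 1 for 2h (1.78%), 1 for 4h (2.19%), 0 for 1D (0.831%), 0 for 3D (0.498%) and 0 for 5D (1.64%). Both lower calls were at 0h. LTP3 had 5.11, 1.53 and 6.25 CPM in rbohE leaves, against 130.4, 63.0 and 2.30 CPM in WT (-3.92 ± 0.75 (SE), adjusted p = 2.94e-05), and the lowest WT sample lay among the rbohE samples. LTP4 was at the floor in rbohE leaves at 0h with 3 to 6 counts per library, against 77.6, 31.8 and 0 CPM in WT, so that its fitted log2 fold change (-9.09) depends on the prior count. In a fit of the 2 groups alone, the call of LTP3 was lost (adjusted p = 0.0690).

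After the cut, rbohE and WT differed in few values. LTPG5 had 208, 294 and 268 CPM in rbohE leaves at 2h, against 95.1, 169.8 and 96.2 CPM in WT (1.09 ± 0.27 (SE), adjusted p = 0.00520), and LTPG15 had 1.33, 1.71 and 1.64 CPM in rbohE leaves at 4h, against 0.925, 0.583 and 0.437 CPM in WT (1.27 ± 0.31 (SE), adjusted p = 0.00455). All 3 rbohE samples were above all 3 WT samples in both cases. The LTPG5 call was lost without rbohE 2h replicate 2 or WT 2h replicate 1 or 3, with log2 fold changes of 0.95 to 0.98. LTP1 was close to the threshold at 0h (0.89 ± 0.19 (SE), adjusted p = 1.74e-04) and at 5D (0.95 ± 0.20 (SE), adjusted p = 0.00128), and was not called.

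**Figure D5:**
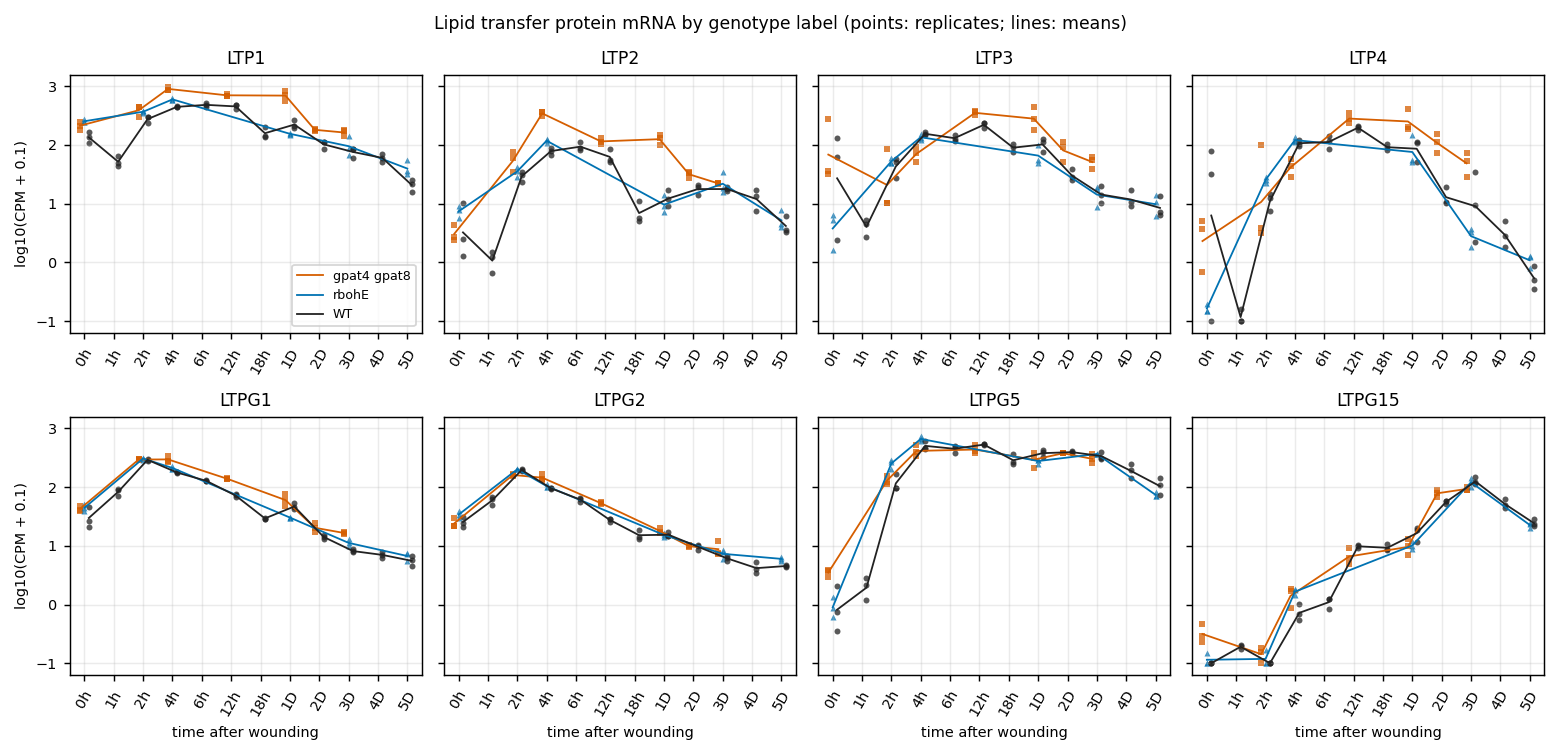
Level of each member in leaves labelled gpat4 gpat8 (squares), rbohE (triangles) and WT (circles), as log10(CPM + 0.1), against time after wounding. Points are the 3 replicates and lines join the means of the plotted values. LTP1 and LTP2 of gpat4 gpat8 lie above WT at 4h and 1D, and LTPG1 of gpat4 gpat8 lies above WT at 3D.

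Within each mutant label, most members changed over the course. Against their own 0h group, 39 of 48 pairs were called in gpat4 gpat8 (33 higher, 6 lower), against 25.7% of all pairs, and 32 of 40 in rbohE (25 higher, 7 lower), against 31.3%. The gpat4 gpat8 libraries of 0h carry the M, while those of 2h, 4h, 2D and 3D do not. For those times, the change since 0h and the mark cannot be told apart. Split by time, the members called in gpat4 gpat8 numbered 7 for 2h (36.1%), 7 for 4h (28.8%), 8 for 12h (16.5%), 5 for 1D (20.3%), 6 for 2D (27.9%) and 6 for 3D (24.7%), with the share of all genes in parentheses. In rbohE they numbered 6 for 2h (45.3%), 8 for 4h (37.1%), 5 for 1D (24.5%), 8 for 3D (25.2%) and 5 for 5D (24.5%). LTPG1 had 286, 299.6 and 301 CPM at 2h in gpat4 gpat8, against 40.9, 39.1 and 48.4 CPM at 0h (2.79 ± 0.17 (SE), adjusted p = 1.18e-21). In rbohE, LTPG1 had 295, 311 and 318 CPM at 2h, against 51.7, 43.2 and 39.2 CPM at 0h (2.78 ± 0.17 (SE), adjusted p = 5.59e-22). LTPG15 was again late, with 89.7, 90.3 and 99.8 CPM at 3D in gpat4 gpat8, against 0.132, 0.369 and 0.187 CPM at 0h. It had 101, 124 and 141 CPM at 3D in rbohE, where the 0h group was at the floor. LTP4 at 2h in gpat4 gpat8 had 3.82, 3.07 and 98.2 CPM, against 0.572, 3.57 and 4.87 CPM at 0h, and its call (3.52) was lost without replicate 3 of 2h (0.18). LTP3 showed the same high library, with 10.2, 10.0 and 86.3 CPM at 2h, against 35.4, 282 and 32.1 CPM at 0h, and its call of lower (-1.71) was lost without 0h replicate 2 (0.08) or without 2h replicate 1 or 2.

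Whether a change differed between genotypes was tested as the change of the mutant label minus the change of WT. From 0h, 23 of 48 such differences were called for gpat4 gpat8, against 17.5% of all pairs, and 13 of 40 for rbohE, against 7.99%. Split by time, with the share of all genes in parentheses, the members called in gpat4 gpat8 numbered 3 for 2h (17.9%), 3 for 4h (22.4%), 5 for 12h (12.5%), 5 for 1D (16.5%), 4 for 2D (19.4%) and 3 for 3D (16.3%). In rbohE they numbered 3 for 2h (7.26%), 2 for 4h (6.85%), 4 for 1D (7.65%), 2 for 3D (10.1%) and 2 for 5D (8.07%). These share the 0h libraries, whose replicates disagreed for LTP2, LTP3, LTP4 and LTPG5, and a fit of the 4 groups alone called 13 and 6. The 0h libraries of gpat4 gpat8 also carry the M. For LTP2 the difference at 1D was 3.97 ± 0.58 (SE), adjusted p = 1.31e-07 and it stayed called without any 1 library, with a value of 2.61 without WT 0h replicate 1. From 2h to 3D, a difference that uses neither 0h nor an M library, 1 of 8 members was called, against 4.63% of all genes. LTPG1 fell less in gpat4 gpat8 than in WT over that span (1.01 ± 0.22 (SE), adjusted p = 0.00125), a value at the threshold that was not called without 1 of 4 libraries (gpat4 gpat8 2h replicate 1, gpat4 gpat8 3D replicate 2, WT 2h replicate 2 or WT 3D replicate 2), at 0.98 to 0.99.

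The rest of the lipid transfer family was counted from a list of 27 genes, of which 18 were tested. In WT at 3D, 9 of the 18 were called higher and 2 lower (median log2 fold change 1.60), beside 17.9% of all genes called either way. The 4 with the largest called changes in WT at any time were AT2G18370, EDA4, AT3G22620 and AT4G12490. AT2G18370, a gene of the same superfamily, had 196, 175 and 209 CPM in WT at 4D, against 0 in all 3 libraries at 0h, at least 1435-fold higher than the floor. EDA4 had 159 ± 20.7 CPM at 3D (SD, n = 3), against 0 at 0h, at least 1176-fold higher. AT4G12490 had 417, 422 and 304 CPM at 1D, against 1.27, 0.197 and 0.362 CPM at 0h (9.22 ± 0.71 (SE), adjusted p = 3.93e-16). In gpat4 gpat8 relative to WT, 7 of the 18 were higher and 2 lower at 0h, where 10.8% and 9.7% of all genes were. At 3D 1 was higher and 0 lower, where 2.52% and 0.639% of all genes were.

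Genes of barrier polymers were counted beside the members. Of 16 suberin genes, all tested, 15 were called higher and 0 lower in WT at 3D, when LTPG15 peaked and 10.6% and 7.34% of all genes were higher and lower (median log2 fold change 13.27, which includes genes at the floor at 0h and so depends on the prior count). At 2h, when LTPG1 and LTPG2 peaked, 6 of the 16 were higher and 0 lower, and 18.2% and 20% of all genes were higher and lower. Of 26 cutin and wax genes, 24 were tested. In WT, 11 were higher and 4 lower at 2h, the 4 lower being near the share of all genes, and 6 were higher and 8 lower at 3D. In gpat4 gpat8 at 4h relative to WT, 14 of the 24 cutin and wax genes were higher and 0 lower, and 3 of the suberin genes were higher and 5 lower, where 11.8% and 7.39% of all genes were higher and lower.

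The genes most like each member over the 25 group means of log2 CPM, among 18476 genes averaging at least 1 CPM, are given as a description without a test. All groups come from 1 experiment and share its depth and scaling. For LTP1 they were AT5G46730 (0.951), AT3G23450 (0.943) and CK1 (0.935), with Pearson correlations in parentheses. For LTP2 they were AT5G55530 (0.913), NF-YB8 (0.891) and GSTU19 (0.888). For LTP3 they were AT1G26930 (0.894), GSTZ1 (0.874) and WIH1 (0.870), and for LTP4 AT1G26930 (0.947), TI1 (0.898) and AT4G33540 (0.897). LTP3 and LTP4 thus had AT1G26930 as their nearest gene outside the members, and correlated with each other at 0.93. For LTPG1 they were the gene AT1G52827, with the RefSeq symbol CDT1 (0.973), AT1G20970 (0.970) and AT3G26520, with the symbol TIP2 (0.970). For LTPG2 they were ALDH3I1 (0.975), SYP132 (0.972) and AT5G13400 (0.969). For LTPG5 they were AT3G22620 (0.977), WRKY8 (0.972) and GPAT1 (0.970), where WRKY8 encodes a transcription factor and GPAT1 an acyltransferase. For LTPG15 they were AT4G33610 (0.993), AT2G21100 (0.989) and AT1G55990 (0.983). Among the members themselves, LTPG2 and LTPG15 were the most opposed, with a correlation of -0.79, and LTP1 and LTP2 correlated at 0.80.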

How the data were processed

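Polyadenylated RNA of 75 leaf libraries was sequenced from a stranded mRNA kit, per the labels' protocols. The table holds estimated counts deposited by the authors for 32833 genes, whole numbers whose lowest non-zero values fell on a spacing near 2.62. The column names per the file headers point to StringTie, and the submitters' processing notes name HISAT2 2.2.1, StringTie 1.3.4, Trimmomatic 0.39, edgeR 3.19 and the build TAIR10, without their roles. The strand setting, read length and annotation are not given in the sources used here.

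From these counts, 23475 genes passed filterByExpr (minimum count 10, minimum total 15), and edgeR 4.0.16 in R 4.3.3 fitted all 75 libraries in 1 quasi-likelihood model (robust, TMM, prior count 0.125) with 1 coefficient per group. P-values were adjusted by Benjamini-Hochberg over all genes tested in each of 58 comparisons. The floor of detection was 3 fragments, or 7.86 counts, per library. Totals had a median of 61143105 counts. Counting error limits the precision of low values, but it is not the only source of their spread. Alternatives were RLE scaling, no filter on low counts, a replicate block, counts divided by the spacing, a fit of only the groups compared, DESeq2 1.42.0 and leaving out each library. The code was tested on simulated data. All 75 pairs of replicates differed beyond sampling noise (chi-square per degree of freedom of at least 4.79) and were counted separately. Nothing states that replicates came from separate plants, so p-values measure the spread between these samples, which may be technical.

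Gene names and positions came from RefSeq (TAIR10.1), which held 32548 of the 32833 IDs. The 8 members, the lists of other lipid transfer, suberin, and cutin and wax genes and the markers were chosen with earlier results of these data known. Genes outside the members were named by rule: the 3 with the highest correlation with a member, and the 4 other lipid transfer genes with the largest called change in WT. Protein sequences were not analysed here.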

Additional observations from a re-analysis of the deposited data

Results flagged for a closer look

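The change after wounding differed between a mutant label and WT in 37 tested differences, each given as the log2 change in the mutant label minus that in WT, with edgeR's adjusted p. All but the last use the 0h libraries of both genotypes, so values of one gene at several times share them. The gpat4 gpat8 libraries of 0h, 12h and 1D carry the M. In gpat4 gpat8, LTP1 differed by 1.00 ± 0.27 (SE) at 1D (adjusted p = 0.00253), a value at the threshold. LTP2 differed by 1.57 (2h), 2.76 (4h), 1.47 (12h), 3.97 (1D) and 1.46 (2D), with adjusted p of at most 0.0404. Without WT 0h replicate 1, those of LTP2 at 4h and 1D were 1.39 and 2.61, and those at 2h, 12h and 2D were 0.20, 0.10 and 0.10.

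LTP4 differed in gpat4 gpat8 by 5.20 (2h), 4.12 (12h), 5.13 (1D), 6.66 (2D) and 5.35 (3D) (adjusted p of at most 0.00657), with 2 WT 0h libraries high and 1 at 0. At 2h, the highest gpat4 gpat8 replicate of LTP4 was 31.95 times the lowest, so that value leans on 1 library. LTPG2 differed by 1.03 at 12h (adjusted p = 7.49e-05), close to the threshold. LTPG5 differed by -1.68 (2h), -2.08 (4h), -2.07 (12h), -2.14 (1D), -1.86 (2D) and -1.95 (3D) (adjusted p of at most 0.00133), beside its higher level in gpat4 gpat8 at 0h. LTPG15 differed by -5.75 (4h), -7.35 (12h), -7.59 (1D), -6.33 (2D) and -7.26 (3D) (adjusted p of at most 0.00186), and since it was at 0 in WT at 0h these sizes depend on the prior count.

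In rbohE, LTP1 differed by -1.42 at 1D (adjusted p = 9.51e-05) and LTPG1 by -1.14 at 1D (adjusted p = 1.23e-04). LTP3 differed by 4.16 (2h), 3.73 (4h), 3.33 (1D), 3.94 (3D) and 4.13 (5D) (adjusted p of at most 0.00952). All of these values share the WT 0h libraries, where the highest replicate of LTP3 was 56.6 times the lowest. Compared with WT at the same time, LTP3 was called in rbohE at 0h alone. LTP4 differed by 10.24 (2h), 9.26 (4h), 8.99 (1D), 6.63 (3D) and 10.17 (5D) (adjusted p of at most 0.00451), where the rbohE 0h group was at the floor and the sizes depend on the prior count. LTPG5 differed by 1.32 at 2h (adjusted p = 0.0380). From 2h to 3D, LTPG1 differed between gpat4 gpat8 and WT by 1.01 (adjusted p = 0.00125), also at the threshold.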

How the results depend on the processing

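Deviations of replicates with the same number had correlations of -0.23 to 0.34 (138 pairs in 46 comparisons, median 0.018). No comparison had every pair above 0.1, although 30 of the 138 pairs were. Pairing by number was thus not shown, but this rule cannot exclude it. With the replicate block, the calls against WT 0h were 63 in place of 62, those between neighbouring WT times 37 in place of 36, the gpat4 gpat8 differences from 0h 22 in place of 23, and the other counts did not move. The count against WT 0h was 47 in a fit of only the groups compared and 59 to 66 without any 1 library. Differences in change from 0h fell to 13 for gpat4 gpat8 and to 6 for rbohE in a fit of only the groups compared. That from 2h to 3D, 1 in the main design, was 2 with DESeq2 and 0 to 4 without 1 library. Direction turned in 9 results without 1 library, and the cause was not tested: LTP2 -0.61 to 1.19 (WT 5D against 0h) and -1.07 to 0.74 (gpat4 gpat8 0h against WT), LTP3 -1.10 to 0.47 and -0.10 to 1.47 (WT 2h and 18h against 0h), -0.95 to 1.84 and -2.15 to 0.10 (gpat4 gpat8 0h and 2h against WT) and -3.52 to 0.0761 (gpat4 gpat8 2h against its 0h), LTPG1 -0.33 to 0.29 (WT 18h against 0h) and LTPG2 -0.0178 to 0.27 (WT 12h against 0h). In a fit of only the groups compared, 209 of 260 values kept their status, 40 lost a call and 6 gained one. The rest had no value in that fit and counted as not called. Of the 6 gained, 5 were of LTP3 and LTP4 in gpat4 gpat8 against WT, at 4h (lower) and 1D (higher) for both and at 3D for LTP3 (1.82). Each other setting of the fit moved at most 7 calls, and leaving out 1 library lost 99 and gained 27 calls over all such fits. In WT, LTP4 at 1h and LTPG15 up to 2h were at the detection floor, so lower levels were not detectable at this depth.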
